A study of Rattus norvegicus with 11 samples.

Results

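The genes described here encode the mitochondrial respiratory chain and the ATP synthase, measured by microarray in rat fibroblasts with and without the transcription factor E2F1. They were chosen by symbol: every probe set with a single platform gene symbol starting with Nduf, Uqcr or Atp5, or with Cox followed by a digit from 4 to 8, and the 4 Sdh genes. This gave 89 probe sets for 84 genes, out of 12783 probe sets for 10411 genes with 1 symbol, and where a gene had several, the brightest on average stood for it. Complex I has 41 of the genes, complex II 4, complex III 7, complex IV 16 and complex V 16. A further 7 probe sets carry several symbols and were left out, among them those shared with Atp5mc1, Atp5mc2, Cox7a2, Ndufa10, Ndufs5 and Uqcrb. The subunits encoded by mitochondrial DNA lie outside the choice and were not analysed here.

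REF52 is an established line of rat embryo fibroblasts. All cultures were grown in 10% fetal bovine serum, held in 0.25% serum for 48 hours, and infected with an adenovirus, either the one expressing E2F1 or a control labelled CMV, called control virus below. Cells with each virus were then kept in serum deprivation (deprived), given serum, or given serum together with the PI3K (phosphoinositide 3-kinase) inhibitor LY294002. Each of the 6 groups has 2 arrays, except the deprived control virus group with 1, and since no label names separate cultures, p-values and errors cover the array-to-array spread alone, possibly a technical one. The model is 1 cell line with E2F1 brought in by a virus; the sources used here give neither the dose of LY294002 nor the time after infection. The introduced gene itself was not analysed here, because E2f1 is the single symbol of no probe set. The data address how respiratory chain transcripts differ between E2F1 and control virus cells, and whether PI3K inhibition or serum deprivation alters that difference.

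The respiratory chain passes electrons from NADH (complex I) and succinate (complex II) through complex III to oxygen at complex IV, and complexes I, III and IV pump protons whose return through complex V, the ATP synthase, drives ATP synthesis. Most subunits are encoded in the nucleus, and their genes are known as targets of the nuclear respiratory factor NRF1, of ETS family factors such as GABP, and of YY1. E2F1 is best known for turning on genes of DNA replication, and has also been linked to the control of oxidative metabolism.

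Signals are linear array intensities, and differences are given as log2 changes of signal + 16 with the standard error (SE) of a limma fit to all 11 arrays. A gene is called when its p-value, adjusted by Benjamini-Hochberg over all 15866 probe sets of a comparison, is under 0.05. The array medians ran from 171.9 to 207.1, while 75 of the 84 genes lay above the median of every array, 3 lay above it on some arrays only (Cox6c-ps1, Ndufaf5 and Ndufaf7), and 6 lay below it on all. Of 10 fibroblast markers, 9 were above the median on every array, and all measured epithelial (5), endothelial (4), leukocyte (4), liver (2) and neuronal (2) markers were below it on every array. Of 5 striated muscle markers 3 were below it on every array, while Ckm was above it on 2 arrays and Tnnt2 on 3, at up to 225 and 270.2. The excess of 3′ over 5′ signal in the control transcripts, a measure that grows as RNA is degraded, was 0.51 to 0.76 (log2) on the 3 deprived arrays and 0.12 to 0.26 on 6 others. Of the remaining pair, both with LY294002 and both numbered 2, the control virus array was at 0.33 and the E2F1 array at 0.90.

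E2F1 left most of the respiratory chain close to its level in control virus cells. Averaged over the 3 media, limma called 9 of 84 genes (10.7%), 6 higher and 3 lower, where 16.5% of all probe sets were called, 9.23% higher and 7.25% lower. The genes that rose were the ATP synthase inhibitor Atp5if1, the ATP synthase stalk subunit Atp5pf, and Ndufa4, Ndufab1, Ndufb1 and Ndufb11, all grouped with complex I by symbol. The genes that fell were the complex I subunits Ndufb4 and Ndufa2 and the complex III core protein Uqcrc2. None of the 84 changed 2-fold or more, against 779 of all probe sets (4.91%), and 78 of the 84 (92.9%) differed by less than 0.5 on the log2 scale, against 78.4% of all. The median change was -0.07 for the 84 genes and -0.04 for all probe sets. Most of the 84 genes are brighter than the array median, and they were not compared with probe sets of like signal. Because each array held the RNA of a whole culture, fewer cells with a transcript and less of it per cell cannot be told apart.

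**Figure D1:**
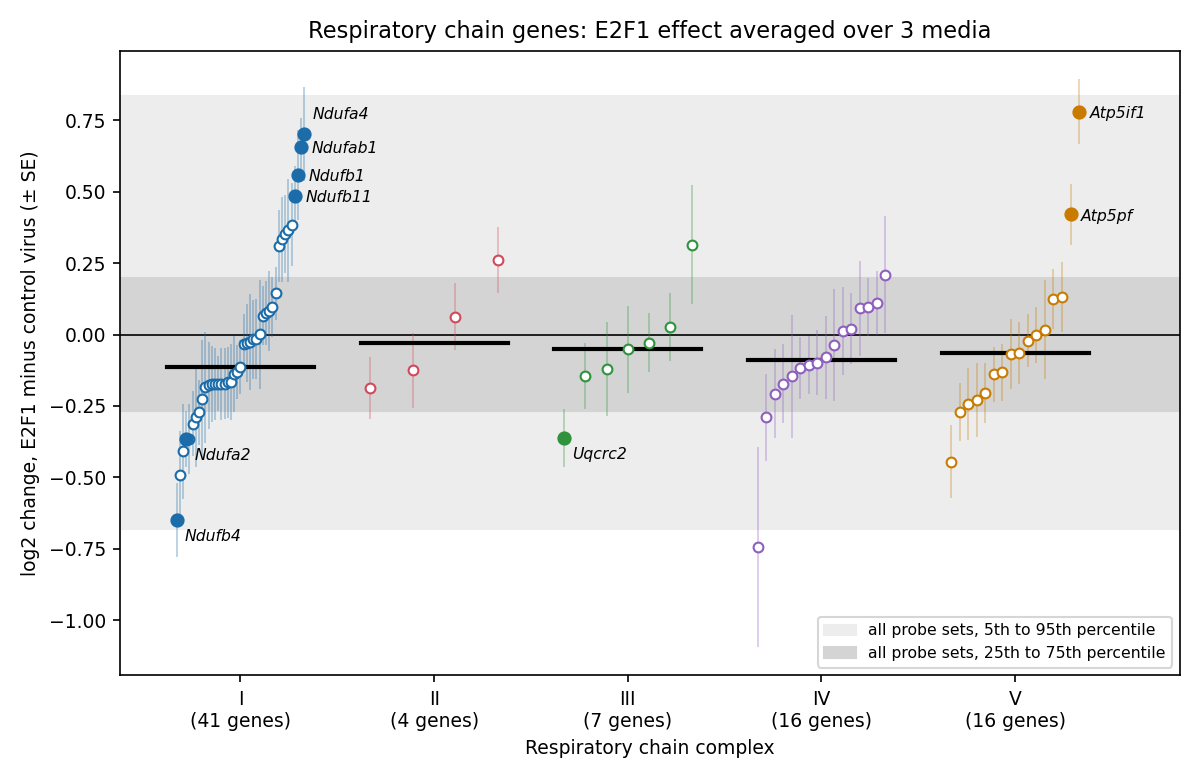
Log2 change between E2F1 and control virus, averaged over 3 media, for each of 84 genes (points, with SE) by complex; filled points passed an adjusted p of 0.05 in limma, the black bar is the complex's median, and the dark and light grey bands hold the 25th to 75th and the 5th to 95th percentile of all probe sets. All points but Cox7a1 lie inside the light band, the medians lie between -0.11 and -0.03, and called genes appear in complexes I, III and V.

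The precision of these values was enough to bound most changes. The 95% interval of the averaged change lay within 1 log2 unit of 0 for 81 of the 84 genes, against 78.7% of all probe sets, and within 0.5 for 49, against 4753 of all 15866. The 3 genes with a wider or shifted interval were Atp5if1, Ndufa4 and the dim Cox7a1. The median SE was 0.13 for the 84 genes and 0.16 for all probe sets. An unadjusted p under 0.05 was reached by 19 of the 84 genes and by 4894 of all probe sets.

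The complexes differed little in their medians, and no test of one complex against another was made. Complex I, which by symbol includes Ndufa4, had 4 genes called higher and 2 lower of 41, with a median change of -0.11. Complex II had 0 called of 4 and a median of -0.03, and none of its genes reached an unadjusted p under 0.05. Complex III had 1 of 7 called, lower, and a median of -0.05. Complex IV had 0 called of the 16 grouped there by symbol, none with an unadjusted p under 0.05, and a median of -0.09. Complex V had 2 of 16 called, both higher, and a median of -0.07.

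Atp5if1 encodes the small protein that binds the F1 head of the ATP synthase and blocks ATP hydrolysis. Its signal was 1404 and 1355 on the control virus arrays in serum and 1467 and 1535 on the E2F1 arrays in serum. With LY294002 it was 898 and 1222 with control virus and 2282 and 2277 with E2F1. In deprivation it was 1037 on the control virus array and 2185 and 2338 on the E2F1 arrays. All 6 E2F1 arrays were above all 5 control virus arrays, with a narrow gap in serum and a wide one in the other media. The averaged change was 0.78 ± 0.11 (SE; 1.72-fold, adjusted p = 0.0043 in limma, higher in 6 of 6 arrays). A dimmer probe set of the gene, at 63.7 to 158, gave 0.36 ± 0.13 (adjusted p = 0.0928) and in deprivation 0.02 ± 0.25, and the dimmest, at 9.46 to 61.0, gave 0.23 ± 0.26 (adjusted p = 0.617), so the 3 probe sets differ in size and in call. Their mean gave 0.46 in the average, which passed, and 0.49 in deprivation (adjusted p = 0.256), which did not.

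Ndufab1 is the mitochondrial acyl carrier protein, which is both an accessory subunit of complex I and a carrier in mitochondrial fatty acid synthesis. In serum its signal was 1808 and 1734 with control virus and 2420.2 and 1983 with E2F1. With LY294002 it was 1483 and 1580.1 with control virus and 2090.5 and 2044 with E2F1. The deprived control virus array, at 868, was the lowest of all 11, and the deprived E2F1 arrays were at 1992 and 2149.95. The groups did not overlap, and the averaged change was 0.66 ± 0.10 (1.58-fold, adjusted p = 0.00531 in limma). Averaged over serum and LY294002 alone, a choice made after seeing the data, it was 0.37 with an adjusted p of 0.09.

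Ndufb4, an accessory subunit of the membrane arm of complex I, showed the opposite order. Its signal in serum was 3122 and 3229 with control virus against 1604 and 2002 with E2F1. With LY294002 it was 2652 and 2914 against 1967 and 1412, and in deprivation 3027 against 2271 and 2323. Every E2F1 array was below every control virus array, and the averaged change was -0.65 ± 0.13 (1.57-fold lower, adjusted p = 0.0128 in limma). Atp5if1 and Ndufb4 were also the 2 genes called when the average was taken over serum and LY294002 alone, where 10.2% of all probe sets were called.

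Ndufa4, first described in complex I and now regarded as part of complex IV, had signals of 3416 and 4211 in serum, 3459.6 and 4632 with LY294002 and 3665 in deprivation with control virus. With E2F1 they were 5391 and 4805, 5328 and 8719, and 6893 and 6997, all above the control virus arrays (0.70 ± 0.17, adjusted p = 0.0255 in limma). The second E2F1 array with LY294002 was the highest by a wide margin. Its paralogue Ndufa4l2 was below the array median everywhere, at 30.6 to 86.6, and gave 0.37 ± 0.18 (adjusted p = 0.219).

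Ndufb11 and Ndufb1 are small subunits of the membrane arm of complex I. For Ndufb11 the control virus signals were 2783 and 3321 in serum, 2985 and 3304 with LY294002 and 2206 in deprivation, and the E2F1 signals were 4158 and 3668, 4175 and 4341, and 3377 and 3631. The groups did not overlap (0.49 ± 0.11, adjusted p = 0.0188 in limma). For Ndufb1 the control virus signals were 1939 and 1490.3, 2232 and 2081, and 1671, and the E2F1 signals were 2804 and 1765, 2951 and 2700.1, and 3465 and 2854. Here the groups overlapped through the second E2F1 array in serum (0.56 ± 0.16, adjusted p = 0.0475).

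Atp5pf, coupling factor 6 of the peripheral stalk that holds the F1 head still, had control virus signals of 2082 and 2318 in serum, 2105 and 2188 with LY294002 and 2213 in deprivation. The E2F1 signals were 3129.6 and 2541, 2990.4 and 2759, and 3175 and 3047, above all of these (0.42 ± 0.11, adjusted p = 0.0319 in limma). The change was of like size in the 3 media, at 0.36, 0.42 and 0.49.

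Uqcrc2, a core protein of complex III, fell by 0.36 on the log2 scale (SE 0.10, adjusted p = 0.046 in limma). Its signals in serum were 2157 and 2159 with control virus and 1841 and 1839.8 with E2F1. With LY294002 they were 2074 and 1674 against 1341 and 1322, and in deprivation 1787 against 1372 and 1365. Within each medium the E2F1 arrays were the lower ones, but the E2F1 arrays in serum lay above the lowest control virus arrays.

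Ndufa2, an accessory subunit of the peripheral arm of complex I, fell by 0.37 (SE 0.10, adjusted p = 0.0403 in limma). Its signals were 1342 and 1311 in serum, 1320.2 and 1145 with LY294002 and 1549 in deprivation with control virus. With E2F1 they were 964 and 1027, 1023 and 927, and 1184 and 1222, so the groups overlapped only between the deprived E2F1 arrays and 1 control virus array with LY294002.

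**Figure D2:**
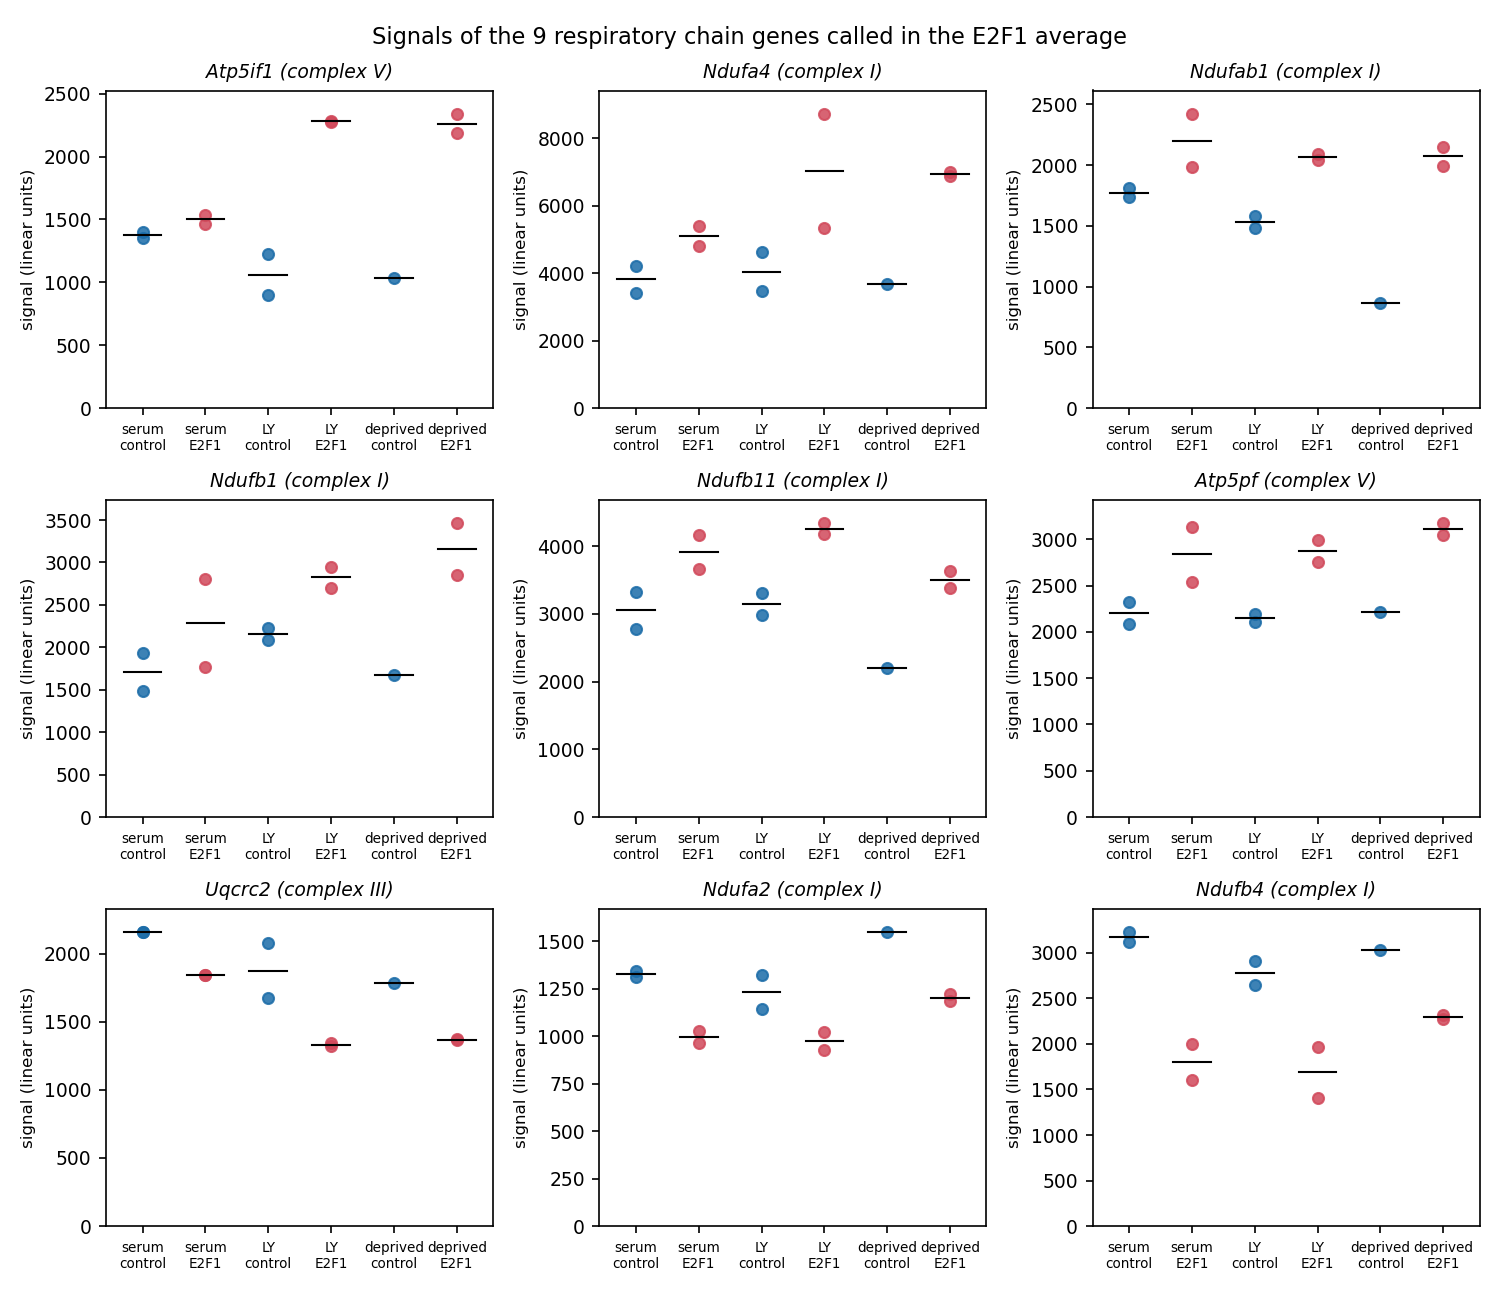
Linear array signal of the 9 genes called in the E2F1 average, in each of 6 groups (blue control virus, red E2F1; each point is 1 array, each bar the group mean). Atp5if1 differs little between viruses in serum and about as widely with LY294002 as in deprivation, while Ndufb4 is lower with E2F1 in all 3 media.

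Of the 84 genes, 7 had E2F1 and control virus arrays that did not overlap at all over the 11 arrays, 5 higher and 2 lower, where 9.64% of all probe sets did so, 6.05% higher and 3.59% lower. They were Atp5if1, Ndufa4, Ndufab1, Ndufb11, Atp5pf, Ndufb4 and Ndufaf7. Compared within each medium, 13 genes were separate in the same direction in all 3, 6 higher and 7 lower, against 19.0% of all probe sets. They were the called genes other than Ndufb1, with Sdhd on the higher side and Ndufa1, Ndufb2, Ndufb6 and Ndufaf7 on the lower side. Fewer genes were called in most of the fits with 1 array left out, which also have fewer degrees of freedom. Over all alternatives the change of Atp5pf ran from 0.37 to 0.47. That of Uqcrc2 ran from -0.41 to -0.31, and that of Ndufb1 from 0.39 to 0.67. Atp5if1, Ndufab1 and Ndufb4 passed when any 1 of the 10 arrays other than the deprived control virus array was left out. Without that array the average over 3 media cannot be formed, and over serum and LY294002 alone Ndufab1 did not pass.

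Within complex I, the 6 measured core subunits, most of which carry the flavin or iron-sulfur clusters, gave 0 calls and a median of -0.17. They ran from -0.22 ± 0.21 for Ndufs8 to 0.07 ± 0.11 for Ndufs7, and 0 of them had an unadjusted p under 0.05. The 28 accessory subunits, which surround that core, held 3 genes called higher and 2 lower, with a median of -0.03. Among accessory subunits that missed the threshold, Ndufv3 was at -0.41 ± 0.17 (adjusted p = 0.141), with its other, dimmer probe set at 0.08 ± 0.11, and Ndufa11 was at 0.39 ± 0.14 (adjusted p = 0.114). The calls of complex I were thus among accessory subunits and Ndufa4, and the core was not tested against them.

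The 5 complex I assembly factors, which build the complex without staying in it, gave 0 calls. Ndufaf7, an arginine methyltransferase acting on a core subunit, had control virus signals of 296 and 258 in serum, 268 and 390.4 with LY294002 and 252 in deprivation, against 244 and 234, 189.7 and 247, and 124 and 172 with E2F1. The E2F1 arrays were all lower, with an averaged change of -0.49 ± 0.15 (adjusted p = 0.0648 in limma), which passed at 0.0395 when the dimmest 30% of probe sets were left out. Ndufaf3 was at 0.35 ± 0.14 (adjusted p = 0.126), Ndufaf4 at -0.17 ± 0.13, Ndufaf8 at -0.14 ± 0.13 and Ndufaf5 at -0.01 ± 0.14.

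Complex II, succinate dehydrogenase, has no subunit outside the 4 Sdh genes. The catalytic subunits gave 0.06 ± 0.12 for the flavoprotein Sdha and -0.19 ± 0.11 for the iron-sulfur protein Sdhb. The membrane anchors gave -0.13 ± 0.13 for Sdhc and 0.26 ± 0.12 for Sdhd (adjusted p = 0.171 in limma). Signals of Sdhd ran from 1217 to 2055 and its E2F1 arrays were the higher ones within each medium. A second Sdhd probe set gave 0.23 ± 0.15.

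In complex III the Rieske iron-sulfur protein Uqcrfs1 was at -0.03 ± 0.10 and the core protein Uqcrc1 at 0.03 ± 0.12. The Uqcrc1 signals with E2F1 were 3664 and 4158 in serum against 3073 and 2397 with LY294002 and 2261 and 2787 in deprivation, while the control virus arrays lay between 2791 and 3201. With E2F1 the difference from serum was -0.52 ± 0.19 with LY294002 (adjusted p = 0.439 in limma) and -0.63 ± 0.19 in deprivation (adjusted p = 0.157), and neither passed. The 4 small subunits ran from -0.15 ± 0.11 for Uqcrq to 0.32 ± 0.21 for Uqcr10.

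In complex IV, cytochrome c oxidase, none of the widely expressed subunits grouped there by symbol moved far. The 9 of them ran from -0.21 ± 0.16 for Cox6a1 to 0.11 ± 0.11 for Cox4i1, 8 with a 95% interval within 0.5 of 0. Ndufa4, now regarded as part of this complex, rose but is counted with complex I here. Cox8a was at -0.11 ± 0.10 and Cox6b1 at -0.17 ± 0.14. Cox7a2l, which helps tie complexes III and IV together, was at -0.15 ± 0.22, and Cox6c-ps1, named as a pseudogene, at -0.29 ± 0.15.

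The 5 tissue isoforms of complex IV, which replace the common form in muscle, lung, testis or other tissues, were below the array median on all 11 arrays. Cox6a2 (11.6 to 52.6), Cox6b2 (2.10 to 16.8) and Cox8b (3.74 to 9.61) were near or under the offset of 16, and Cox4i2 was at 57.8 to 129. Their averaged changes were 0.21 ± 0.20, -0.04 ± 0.20, -0.12 ± 0.11 and -0.08 ± 0.14. Cox7a1, the isoform of heart and skeletal muscle, varied most: 144 and 123 in serum with control virus against 27.5 and 66.0 with E2F1, 147 and 26.8 against 42.7 and 35.4 with LY294002, and 185 against 145 and 149 in deprivation. The control virus arrays with LY294002 lie far apart, and the averaged change of -0.74 ± 0.35 did not pass (adjusted p = 0.196 in limma); without the second of those arrays it was -1.07 with an adjusted p of 0.0144.

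In complex V the F1 head, where ATP is made, gave 0 calls among 5 subunits. Atp5f1e, its smallest subunit, came closest at -0.44 ± 0.13 (adjusted p = 0.0503), and the catalytic Atp5f1b was at 0.13 ± 0.12. Atp5mc3, the 1 gene of the rotating c ring analysed here, was at -0.02 ± 0.09. The 5 small membrane subunits all lay below 0, from -0.23 ± 0.13 for Atp5me to -0.06 ± 0.11 for Atp5mpl, and 0 passed; a dim second probe set of Atp5me gave 0.00 ± 0.56. In the peripheral stalk Atp5pf rose, while Atp5po was at -0.27 ± 0.10 (adjusted p = 0.113), Atp5pd at 0.00 ± 0.10 and Atp5pb at 0.02 ± 0.17.

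Promoter sequence was available in RefSeq (GRCr8) for 76 of the 84 genes, as 250 bases before to 50 after the annotated start. Letters known from binding sites of factors that act on these genes were searched on both strands, as a description. The promoters of all genes used for comparison were not matched to the 84 genes in gene type or expression level. The NRF1 consensus with any base at 1 inner position was in 15 of 76 (19.7%) against 4.71% of 27457 promoters of all genes, and the full NRF1 palindrome, which the looser form includes, in 5 (6.58%) against 0.932%. The ETS letters CCGGAAG were in 21 (27.6%) against 9.22%. The YY1 letters ATGGCGG were in 17 (22.4%) against 5.22%, and a longer YY1 consensus, which includes them, in 10 (13.2%) against 1.16%. The Sp1 letters GGGCGG were in 32 (42.1%) against 34.9%. The E2F letters TTTCCCGC were in 2 (2.63%, against 1.03%) and TTTGGCGC in 2 (2.63%, against 0.521%).

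The 250 bases before the start are shown for the 3 genes whose calls were the most stable, to let their promoters be read beside their values; capitals mark the searched letters on either strand. Atp5if1 lies at chr5:150026678-150026927 (minus strand), Ndufab1 at chr1:186089337-186089586 (minus strand) and Ndufb4 at chr11:76568928-76569177 (plus strand).
Atp5if1: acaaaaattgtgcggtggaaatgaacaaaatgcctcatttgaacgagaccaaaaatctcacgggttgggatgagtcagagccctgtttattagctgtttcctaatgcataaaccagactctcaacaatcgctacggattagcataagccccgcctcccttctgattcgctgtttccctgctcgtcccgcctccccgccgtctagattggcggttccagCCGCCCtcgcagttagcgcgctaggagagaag
Ndufab1: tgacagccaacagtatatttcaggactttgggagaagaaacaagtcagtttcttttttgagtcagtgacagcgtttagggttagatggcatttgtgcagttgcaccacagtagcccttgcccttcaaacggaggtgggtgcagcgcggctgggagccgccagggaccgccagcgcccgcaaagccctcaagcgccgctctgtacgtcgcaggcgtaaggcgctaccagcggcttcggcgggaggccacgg
Ndufb4: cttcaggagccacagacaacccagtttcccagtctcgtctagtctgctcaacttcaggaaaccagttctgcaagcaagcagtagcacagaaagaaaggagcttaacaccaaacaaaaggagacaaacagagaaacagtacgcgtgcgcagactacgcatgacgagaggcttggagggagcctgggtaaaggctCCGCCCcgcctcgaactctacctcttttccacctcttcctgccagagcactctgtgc
In the 250 bases shown only the Sp1 letters were found, 32 bases before the start in Atp5if1 and 57 in Ndufb4, and none of the searched letters in Ndufab1. The searched window also reached 50 bases past the start, not shown, where Ndufb4 holds the NRF1 letters with any inner base.

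The 4 genes with E2F letters are shown for the same reason: Sdhb at chr5:158547684-158547933 (plus strand), Ndufa5 at chr4:53971236-53971485 (minus strand), Atp5pb at chr2:196123738-196123987 (minus strand) and Ndufaf5 at chr3:147961362-147961611 (plus strand).
Sdhb: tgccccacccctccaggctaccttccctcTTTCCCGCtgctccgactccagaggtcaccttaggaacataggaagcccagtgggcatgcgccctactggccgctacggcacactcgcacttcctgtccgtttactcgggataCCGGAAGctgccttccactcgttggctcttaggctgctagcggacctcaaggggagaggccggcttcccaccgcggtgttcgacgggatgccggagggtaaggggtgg
Ndufa5: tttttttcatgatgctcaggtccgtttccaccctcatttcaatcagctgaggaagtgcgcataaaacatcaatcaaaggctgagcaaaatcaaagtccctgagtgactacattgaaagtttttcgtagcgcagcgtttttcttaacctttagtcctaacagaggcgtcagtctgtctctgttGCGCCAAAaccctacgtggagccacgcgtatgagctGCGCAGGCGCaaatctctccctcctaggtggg
Atp5pb: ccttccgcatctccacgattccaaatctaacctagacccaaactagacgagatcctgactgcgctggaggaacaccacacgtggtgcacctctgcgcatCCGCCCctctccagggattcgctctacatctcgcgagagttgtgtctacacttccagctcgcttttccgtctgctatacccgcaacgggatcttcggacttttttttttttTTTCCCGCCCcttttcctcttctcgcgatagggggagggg
Ndufaf5: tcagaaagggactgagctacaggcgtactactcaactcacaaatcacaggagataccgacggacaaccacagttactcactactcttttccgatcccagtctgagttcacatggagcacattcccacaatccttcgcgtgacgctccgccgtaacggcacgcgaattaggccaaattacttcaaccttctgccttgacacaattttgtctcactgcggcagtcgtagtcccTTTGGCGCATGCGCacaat
The E2F letters begin 221 bases before the start in Sdhb, 68 in Ndufa5, 40 in Atp5pb and 19 in Ndufaf5, and in the last they overlap NRF1 letters. Past the part shown, Sdhb also holds the YY1 letters, and Ndufa5 has Sp1 letters that span the start. None of the 4 genes was called with E2F1: the averaged changes were -0.19 ± 0.11 for Sdhb, -0.02 ± 0.14 for Ndufa5, 0.02 ± 0.17 for Atp5pb and -0.01 ± 0.14 for Ndufaf5. A match to these letters does not show that a factor binds there.

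Taken medium by medium, few of the genes passed. In serum limma called 0 of 84 (0.353% of all probe sets), and 4 had an unadjusted p under 0.05, against 2465 of all: Ndufb4 (-0.82 ± 0.21, adjusted p = 0.125), Ndufa2 (-0.41 ± 0.16, adjusted p = 0.276), Ndufb6 (-0.45, adjusted p = 0.294) and Cox7a1 (-1.32 ± 0.56, adjusted p = 0.313). All 4 were lower with E2F1. The median change of the 84 genes was -0.07 and that of all probe sets 0.06.

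With LY294002 limma called 1 of 84 genes, against 5.41% of all probe sets (3.78% higher, 1.63% lower). This was Atp5if1 (1.11 ± 0.18, 2.16-fold, adjusted p = 0.0207), the 1 gene of the 84 that changed 2-fold here. The call was lost, at adjusted p between 0.0514 and 0.0681, without either deprived E2F1 array, the first control virus or the second E2F1 array with LY294002, and 3 genes were called without the first E2F1 array. Without either deprived E2F1 array the Atp5if1 change itself stayed at 1.11. Ndufb4 (-0.73 ± 0.21, adjusted p = 0.0838), Ndufa4 (0.77 ± 0.27, adjusted p = 0.144) and Uqcrc2 (-0.48 ± 0.16, adjusted p = 0.134) did not pass, nor did Cox5b, a zinc-binding subunit of complex IV (0.25 ± 0.16, adjusted p = 0.437). When the fit included each array's 3′ excess, Atp5if1 was at 1.07 (adjusted p = 0.0621).

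In deprivation limma called 2 of 84 genes, against 2.87% of all probe sets (2.19% higher, 0.681% lower). They were Ndufab1 (1.24 ± 0.20, 2.36-fold, adjusted p = 0.0296) and Atp5if1 (1.11 ± 0.22, 2.16-fold, adjusted p = 0.0459), and they were the 2 that changed 2-fold. The control virus side is 1 array, assumed to vary like the other groups. Both calls were lost when either E2F1 array of this medium was left out, with the changes between 1.06 and 1.29. Both were also lost when any single array in serum was left out. There the changes stayed at 1.24 for Ndufab1 and 1.11 for Atp5if1, and only their adjusted p rose. The 3′ excess was 0.76 on the control virus array and 0.51 and 0.56 on the E2F1 arrays; 3 genes were called when the fit included it. Ndufa4 (0.92, adjusted p = 0.166), Ndufb1 (0.91, adjusted p = 0.153) and Ndufa4l2 (0.84, adjusted p = 0.229) did not pass. The median was -0.12 for the 84 genes and -0.14 for all probe sets.

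**Figure D3:**
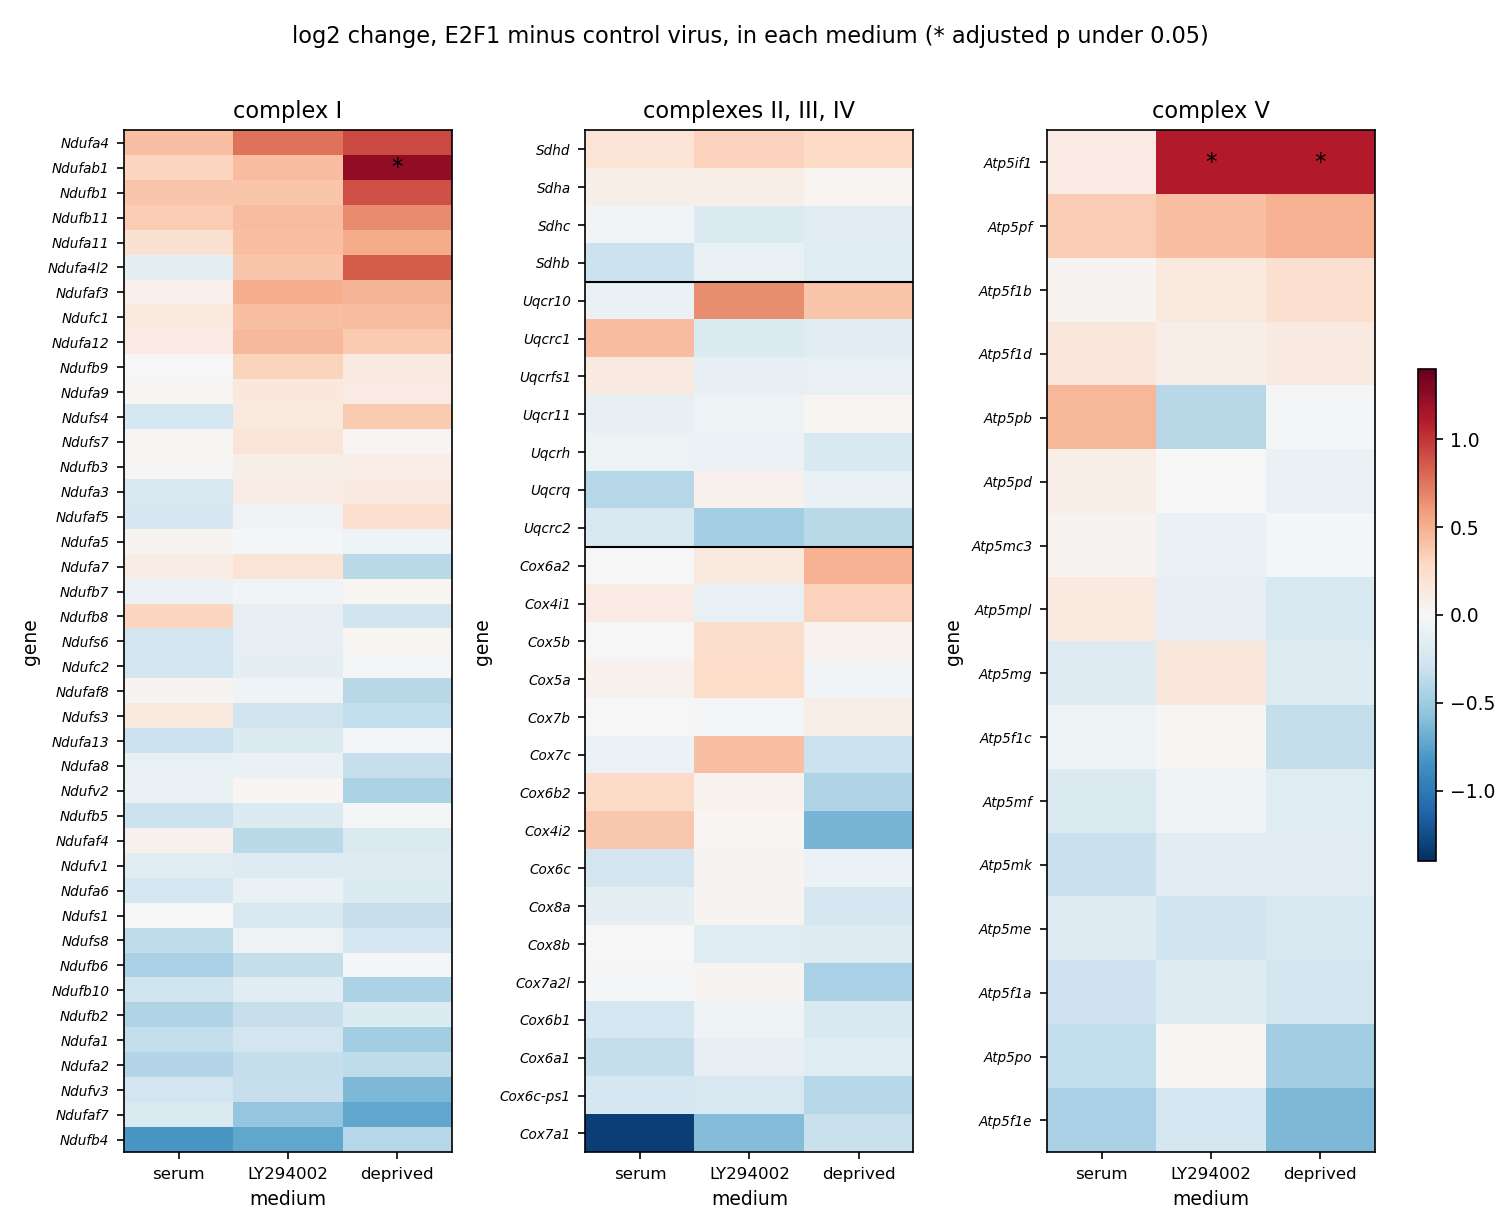
Log2 change between E2F1 and control virus for each gene (rows, by complex, ordered by the averaged change) in serum, with LY294002 and in deprivation; red is higher and blue lower with E2F1, and stars mark an adjusted p under 0.05. The 3 stars are Atp5if1 with LY294002 and in deprivation and Ndufab1 in deprivation; most other cells are pale.

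Whether the medium altered the E2F1 effect was tested directly. For the effect with LY294002 minus that in serum, limma called 0 of 84 genes and 0.0% of all probe sets. An unadjusted p under 0.05 was reached by 998 of all 15866 probe sets and by 1 of the 84 genes. This was Atp5if1, whose effect was larger with LY294002 by 0.99 ± 0.26 (adjusted p = 0.716). For deprivation minus serum 0 of 84 and 0.0% of all probe sets were called, and 1542 of all had an unadjusted p under 0.05. Of the 84 genes 3 did: Atp5if1 (0.99 ± 0.29, adjusted p = 0.396), Ndufab1 (0.93 ± 0.26, adjusted p = 0.389) and the dim Cox4i2 (-1.04 ± 0.37, adjusted p = 0.454). Of the accessory complex I subunits, Ndufb8 had differences of -0.41 ± 0.23 with LY294002 (adjusted p = 0.838) and -0.58 ± 0.26 in deprivation (adjusted p = 0.532), and Ndufb9 one of 0.32 ± 0.21 with LY294002 (adjusted p = 0.855). The differences for Atp5if1 thus failed the correction over all probe sets. The 95% interval of its difference with LY294002, not adjusted for the number of probe sets, ran from 0.39 to 1.59. The dimmer Atp5if1 probe set gave 0.60 ± 0.29 with LY294002 and -0.21 ± 0.32 in deprivation. The dimmest gave 1.03 ± 0.59 and 0.65 ± 0.66.

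The media themselves changed little that passed. LY294002 against serum alone gave 0 calls among the 84 genes with either virus, where 0.0% of all probe sets were called. With control virus 0 of the 84 genes had an unadjusted p under 0.05, against 1050 of all 15866 probe sets. With E2F1 it was 5 of the 84, against 1769 of all. The 5 were Atp5if1 (0.60 ± 0.18), Cox7c (0.65 ± 0.25), Uqcrc2 (-0.46 ± 0.16), Uqcrc1 (-0.52 ± 0.19) and Atp5pb (-0.76 ± 0.28), with adjusted p from 0.428 to 0.439. With control virus Atp5if1 had the other sign, at -0.39 ± 0.18 (adjusted p = 0.743). The accessory complex I subunit Ndufa9 ranged there from 1491 to 1615 in serum and from 1216 to 1221 with LY294002 (-0.34 ± 0.17, adjusted p = 0.743).

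Deprivation against serum also gave 0 calls with control virus (0.24% of all probe sets) and with E2F1 (0.233%). An unadjusted p under 0.05 was reached by 2217 and 3106 of all 15866 probe sets, and by 6 and 12 of the 84 genes. Ndufaf3, an assembly factor, and Ndufa1, a membrane arm subunit, were among them under both viruses, Ndufa1 at 0.61 (adjusted p = 0.314) and 0.46 (adjusted p = 0.249). The Ndufaf3 signals were 555 and 664 in serum against 246 in deprivation with control virus, and 615 and 667 against 325 and 372 with E2F1. The Ndufaf3 differences were -1.25 ± 0.27 (adjusted p = 0.13) and -0.85 ± 0.22 (adjusted p = 0.126). Ndufab1 was lower in deprivation with control virus (-1.02 ± 0.20, adjusted p = 0.113), and Atp5pb lower with E2F1 (-0.91 ± 0.28, adjusted p = 0.158). The F1 head subunit Atp5f1a was at 4001 on the deprived control virus array and at 5276 and 6356 in serum (-0.53 ± 0.25, adjusted p = 0.388). With E2F1 the accessory complex I subunit Ndufs6 was at 2011 to 2092 in serum and 2665 to 2829 in deprivation (0.42 ± 0.15, adjusted p = 0.205). The dim isoform Cox7a1 had the largest difference of the 84 there (1.45 ± 0.56, adjusted p = 0.219), and Cox4i2 was at -0.75 ± 0.23 (adjusted p = 0.159). All deprived arrays had a higher 3′ excess than the serum arrays, 0.51 to 0.76 against 0.12 to 0.19. With the 3′ excess in the fit, the number of called genes stayed at 0 with either virus. Its part in the single values was not tested.

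**Figure D4:**
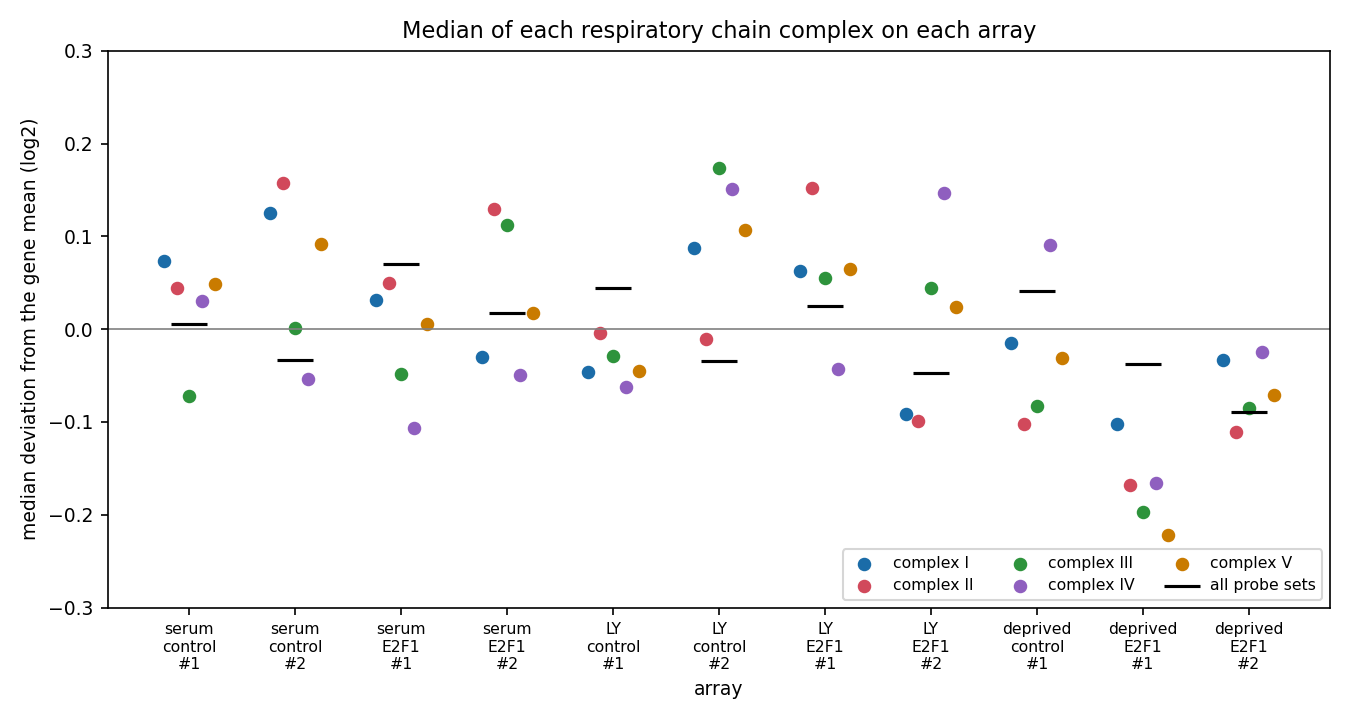
Median over each complex's genes of the deviation from the gene's mean (log2), on each of 11 arrays; black bars give the same over all probe sets. The medians lie between -0.22 and 0.17, the lowest being complex V on the first deprived E2F1 array.

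Seen array by array, the complexes moved within a narrow range. The median deviation from each gene's mean ran from -0.10 to 0.12 over the arrays for complex I, -0.17 to 0.16 for complex II, -0.20 to 0.17 for complex III, -0.17 to 0.15 for complex IV and -0.22 to 0.11 for complex V. Over all probe sets it ran from -0.09 to 0.07. The first deprived E2F1 array was the lowest for complexes I to V alike.

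Other mitochondrial genes give the setting of these values; each list is described by its calls in the E2F1 average, beside the 16.5% of all probe sets and their median of -0.04. Of 71 mitochondrial ribosomal protein genes 10 rose and 1 fell, with a median of 0.03. Mrpl42 (1.12 ± 0.14), Mrpl28 (0.99 ± 0.13) and Mrpl43 (0.73 ± 0.17) rose and Mrpl23 fell (-0.66 ± 0.14). Of 39 genes of import, inner membrane transport and dynamics 6 rose and 0 fell, with a median of 0.09, among them the dicarboxylate carrier Slc25a10 (1.89 ± 0.16), the import channel subunit Timm17b (0.72 ± 0.12) and the ADP/ATP carrier Slc25a5 (0.59 ± 0.12).

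Of 35 assembly factors outside the rule 1 rose and 2 fell: Higd1a, a factor of complexes III and IV, rose (0.81 ± 0.11), and the membrane insertase Oxa1l (-0.83 ± 0.12) and the complex III factor Uqcc3 (-0.48 ± 0.14) fell. Higd1a ran from 1655 to 2401 with control virus and from 3215 to 4068 with E2F1, with no overlap. Of 16 regulators of mitochondrial transcription and replication 3 rose and 1 fell, with a median of 0.19. The GABP subunit Gabpb1 (0.81 ± 0.13), the mitochondrial transcription factor Mterf3 (0.64 ± 0.14) and the packaging factor Tfam (0.35 ± 0.10) rose, and the nucleoside kinase Dguok fell (-0.61 ± 0.16).

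Of 22 genes of the citric acid cycle and pyruvate dehydrogenase 3 rose and 3 fell, with a median of -0.11. The pyruvate dehydrogenase kinase Pdk3, which switches the enzyme off, had the widest change (2.45 ± 0.27), from 268 to 396 with control virus to 887 to 3856 with E2F1. The phosphatase Pdp1, which switches it on (0.82 ± 0.12), and pyruvate carboxylase Pc (0.77 ± 0.15) rose too, while the succinyl-CoA ligase subunits Suclg2 (-0.70 ± 0.13) and Suclg1 (-0.53 ± 0.13) and the kinase Pdk2 (-1.33 ± 0.20) fell. Of 17 electron carriers and feeder enzymes 1 fell, Coq8a of coenzyme Q synthesis (-0.87 ± 0.21). Of 13 antioxidant and uncoupling genes Prdx3 (-0.52 ± 0.14) and Gpx4 (-0.41 ± 0.11), which remove peroxides, fell and 0 rose. The adjusted p of each gene named from these lists was under 0.05 in limma.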

How the data were processed

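Labelled RNA from REF52 cells (6 µg) was hybridised to 11 rat RAE230A arrays, per the labels' protocols. The authors deposited linear signal intensities; MAS5 and RMA are named, with no role or version, in the submitters' processing notes. Each array's mean, with 2% trimmed from both ends, was 500.0. With 11 arrays, their number limits the precision. Of 15923 probe sets 57 controls were left out. Group means of log2(signal + 16) of the 11 arrays were compared with limma 3.58.1 (R 4.3.3; lmFit, eBayes without trend; 5 residual and 2.88 prior degrees of freedom), tested on simulated data. Benjamini-Hochberg adjustment was made within each of 10 comparisons, which share arrays. Alternatives were quantile normalization, median centring, offsets of 1 and 64, leaving out the dimmest 30%, eBayes with trend and robust, weights per array, a replicate block, the 3′ excess as covariate, the mean over a gene's probe sets, the compared groups alone, and leaving out arrays.

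The genes, lists and tests were chosen with earlier results of these data known. Genes named are, per complex and comparison, up to 4 called in each direction, or the 2 with the smallest p; all tissue isoforms, assembly factors, inhibitors and Sdh genes; genes whose probe sets differ in sign or call; and up to 3 called genes in each direction per list. Others, such as Ndufa11 and Ndufb6, were picked after their values were seen. All 84 symbols were found in RefSeq's gene table.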

Additional observations from a re-analysis of the deposited data

Results flagged for a closer look

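Cox7c, a small subunit of cytochrome c oxidase, moved in opposite directions with E2F1 in 2 media, with arrays that did not overlap in either. Such separation was common: it held for 33 of the 84 genes with LY294002 and for 68 in deprivation. The share of all probe sets that separate in either medium alone was not counted. With so few arrays per group, groups often separate by chance, so these counts say little about the respiratory chain genes. For Cox7c the values were as follows. With LY294002 its signals were 2407 and 3691 with control virus and 3841 and 4164 with E2F1, a change of 0.42 ± 0.25 (adjusted p = 0.379 in limma). In deprivation they were 4106 on the single control virus array and 3011 and 3663 with E2F1, a change of -0.30. Neither change passed the threshold, and the difference between them was not tested.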

How the results depend on the processing

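The E2F1 average gave 6 to 13 called genes under the planned settings other than leaving out 1 array (9 as reported), 3 to 10 with 1 array left out (never the deprived control virus array, on which the average and the deprivation comparison rest), and 2 over serum and LY294002 alone, a choice added after seeing the data. Atp5if1 and Ndufb4 passed in all of these, and Ndufab1 in all but the last. In serum the count was 1 (Ndufb4) with array weights. With LY294002 (1 as reported) it was 2 with an offset of 64 or with trend and robust settings, and 0 with array weights, the 3′ excess as covariate, the compared groups alone or without both second arrays with LY294002, and 0 to 3 with 1 array left out. In deprivation (2 as reported) it was 1 with median centring, an offset of 1 or the mean over probe sets, 0 with the compared groups alone, and 0 to 2 with 1 array left out. Deprivation against serum with E2F1 gave 2 with array weights and 1 without both second arrays with LY294002, where 0 was reported. The remaining counts stayed at 0, and 0 changes of named genes that were called reversed. Of the alternative values of named genes, 6334 kept their side of the threshold, 86 lost a call and 14 gained one. Most of the 6334 were of genes not called as reported, so they say little on the stability of calls. In the average, the calls of Ndufb1, Uqcrc2, Ndufa2, Atp5pf and Ndufa4 were lost in most fits with 1 array left out, and that of Ndufb11 in some. For most of the lost and gained calls the cause was not tested. Fewer arrays leave fewer degrees of freedom. Genes near or under the offset, such as Cox6b2 and Cox8b, are limited by signal over background.

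The replicate numbers did not pair the arrays in most groups: deviations of same-numbered arrays correlated between -0.02 and 0.30 over 10 pairs of groups. The 1 pair above 0.1, at 0.30, was control virus and E2F1 with LY294002. Those arrays may be paired by number, which the main fit did not take into account. With the number as a replicate block the average gave 7 calls, 6 higher and 1 lower, and deprivation 0.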

Other observations

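On the second arrays with LY294002, 1 per virus, many respiratory chain genes were at their highest. Chosen after its values were seen, this is a description: both arrays were the 2 highest of the 11 for 14 of the 84 genes (16.7%) and for 4.4% of all probe sets, and the 2 lowest for 2 genes (2.38%), against 5.64%. The 14 include the cytochrome c oxidase genes Cox4i1, Cox5a, Cox6a1, Cox6b1, Cox6c and Cox7a2l, and also Uqcrh, Uqcr11 and Ndufb10. Cox7a2l was at 5205 and 6189 on these arrays and at 2448 to 4231 on the others. Uqcr11 was at 6984 and 6457 against 4045 to 4614, and Ndufb10 at 3002 and 2368 against 1067 to 1720.4. The 2 genes at their lowest were Ndufs8, at 548 and 515 against 597 to 1209.8, and Sdha. The 3′ excess was 0.33 and 0.90 on the second arrays against 0.19 and 0.26 on the first; its part in the pattern was not tested.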
